A study of Arabidopsis thaliana with 39 samples.

Results

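The miR396 family of Arabidopsis thaliana was followed through 9 abiotic stresses by small RNA sequencing. Every row of the 9 deposited count sheets named as a miR396, whatever the species prefix, was taken as a member, with 1 row per distinct sequence, which gave 4 of 353 mature sequences: miR396a-5p, miR396a-3p, miR396b-5p and miR396b-3p. All plants were Col-0 wild type, and each of 13 conditions had 3 libraries that the labels call biological replicates. For drought, leaves were sampled from 27-day-old plants dried to 30% soil water content (D30) beside watered plants of that age (C30), and from 30-day-old plants dried to 20% (D20) beside their own watered plants (C20). Drought was imposed on 3 plant batches. Seedlings kept at 37 °C for 0.5 h (H0.5) or 6 h (H6) had unheated seedlings (H0) as their common control. Other seedlings spent 24 h in liquid medium that held 250 mM NaCl (the NaCl+ group), lacked copper (Cu-) or sulfate (S-), or held copper sulfate (Cu+) or cadmium sulfate (Cd+) at 10 µM, and those 5 treatments had the same 3 untreated libraries (C) as their control. Seedlings were 14 days old when stress began and 15 days old at sampling. The question put to the family is how its level moved in each stress relative to unstressed plants of the same experiment.

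miR396 is an ancient plant miRNA that guides the cleavage and translational repression of transcripts for growth-regulating factors, known as GRFs. GRFs are transcription factors that work with GRF-interacting coactivators to keep cells dividing in young leaves and other organs, so the miRNA acts as a brake on organ growth. Each precursor folds into a hairpin from which a duplex is cut. The 5p strand is the regulator of GRF transcripts, and the 3p strand is its partner in the duplex.

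The mature sequences are shown because the 5p strands carry the seed that reads the GRF transcripts and because single bases separate the members. Each is written 5′ to 3′ with the letters of the deposited sheets, and capitals mark the seed, bases 2 to 8.
miR396a-5p: tTCCACAGctttcttgaactg
miR396b-5p: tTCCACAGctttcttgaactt
miR396a-3p: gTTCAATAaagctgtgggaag
miR396b-3p: gCTCAAGAaagctgtgggaaa
All 4 are 21 nt long. Counted from the 5′ end, miR396a-5p and miR396b-5p share their first 20 bases and differ by G21T alone, so the seeds are the same. miR396a-3p and miR396b-3p differ by T2C and T7G, both in the seed, and by G21A. Outside the family the nearest sequence of the same length, compared base by base without shifts, had 9 or more mismatches to any member. Sequences of other lengths were not compared. A read of a 5p strand that lacks the last base fits both members, and the counting trimmed unmatched reads at their ends, so some reads of miR396a-5p and miR396b-5p may be shared between them. The 2 hairpins have separate places in the genome (TAIR10.1, exact match of the mature sequence). miR396a-5p lies at chr2:4142443-4142463 and miR396a-3p at chr2:4142331-4142351, both on the minus strand inside MIR396a (AT2G10606), a miRNA gene annotated from 4142323 to 4142473. miR396b-5p lies at chr5:13611808-13611828 and miR396b-3p at chr5:13611904-13611924, both on the plus strand inside MIR396b (AT5G35407), annotated from 13611798 to 13611932.

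The transcripts that miR396 is known for were looked up in the same annotation, as background to the sequences and not as a measurement. Of 9 GRF genes, 7 had a stretch of 22 nt with at most 3 bases left unpaired by miR396a-5p when 1 extra base was allowed, while the best stretch in the other 2, GRF5 and GRF6, left 6 or more unpaired. In each of these 7 the stretch lay in coding sequence. Sites that stand for the distinct sequences follow, 5′ to 3′ on the sense strand, with capitals for bases that do not pair with miR396a-5p, G with U counted as unpaired.
GRF1 and GRF2: TCgttcaagaaagCctgtggaa
GRF3 and GRF4: cCgttcaagaaagCctgtggaa
GRF7 and GRF8: TCgttcaagaaagcAtgtggaa
GRF9: ACgttcaagaaagcTtgtggaa
These sites are at chr2:9729944-9729965 in exon 3 of 4 of GRF1 (AT2G22840, plus strand), chr4:17726404-17726425 in GRF2 (AT4G37740, minus strand), chr2:15271745-15271766 in GRF3 (AT2G36400, minus strand), chr3:19617293-19617314 in GRF4 (AT3G52910, minus strand), chr5:21795145-21795166 in GRF7 (AT5G53660, plus strand), chr4:12538649-12538670 in GRF8 (AT4G24150, plus strand) and chr2:18746292-18746313 in GRF9 (AT2G45480, plus strand). All 7 carry the extra base, and apart from it every base opposite the seed is paired. No GRF transcript was measured in these libraries.

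The 39 libraries held 10238448 to 10741289 reads, of which 1018693 to 5036688 were counted as miRNAs. The NaCl+ libraries had the fewest, 1018693 to 1733990, against 3912553 to 4299489 in C, at much the same number of genome-mapped reads. Their miRNA share of genome-mapped reads was 13.3% ± 3.45 (SD, n = 3), against 39.5% ± 2.29 in C. RNA integrity numbers were 8.7 to 8.9 in NaCl+ and 8.4 to 8.9 in C. Levels below are CPM, reads of a sequence over all miRNA reads of its library, scaled to a fixed total, and the tests are edgeR's quasi-likelihood test on the counts with a p adjusted by Benjamini-Hochberg over all sequences tested. A sequence was called where the adjusted p was under 0.05. The labels name biological replicates but do not say that libraries of one group share nothing else, so the p-values measure the spread between these libraries. In whole leaves and seedlings, fewer cells that hold a miRNA and less of it per cell cannot be told apart. The labelled organs could not be checked against marker genes in miRNA counts.

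The family was of middling abundance. Its 89016 reads over all libraries were 0.06% of the miRNA reads, split into 29.9% miR396b-5p, 27.5% miR396b-3p, 26.5% miR396a-5p and 16.1% miR396a-3p. By mean CPM miR396a-5p took place 41, miR396b-5p place 47, miR396b-3p place 50 and miR396a-3p place 55 of 353 sequences. Library counts of a member ran between 127 and 2914 reads, so none of its values rests on a handful of reads.

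**Figure D1:**
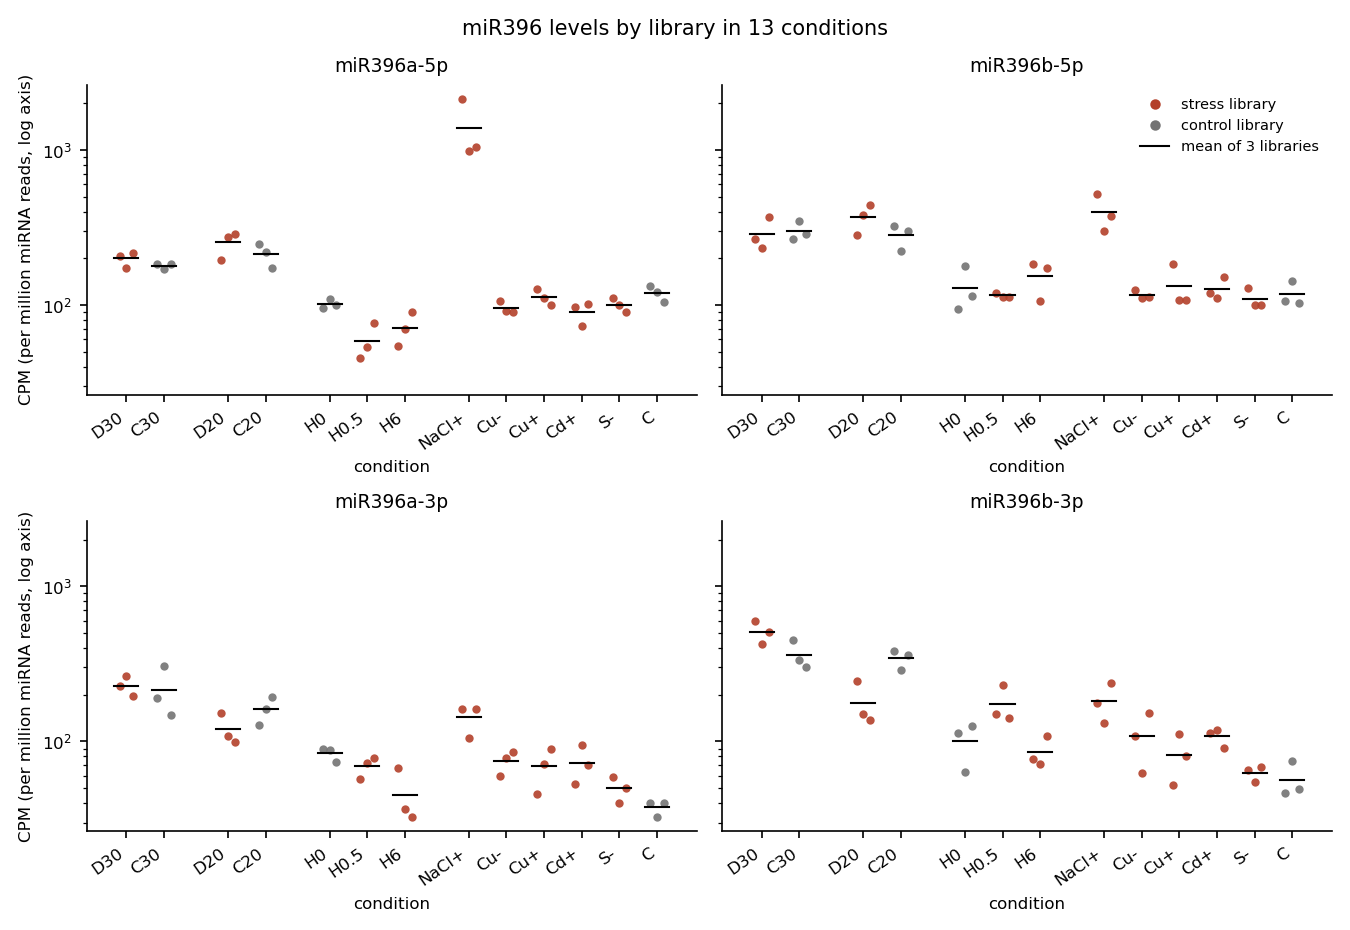
CPM of each miR396 member in every library (log axis), by condition. Points are libraries, red for stress and grey for control, and bars are means of 3 libraries. miR396a-5p in NaCl+ lies between 989.6 and 2139 CPM, above every other library, and the 3p strands are high in leaves.

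Across the 13 conditions miR396a-5p, one of the GRF regulators, stood highest in NaCl+ at 1391 ± 648 CPM (SD, n = 3 here and below), followed by D20 at 253 ± 50.3, C20 at 214 ± 37.3, D30 at 199 ± 22.6 and C30 at 179 ± 7.83. Then came C at 119 ± 14.2, Cu+ at 113 ± 13.7, H0 at 102 ± 7.20, S- at 99.9 ± 10.3, Cu- at 95.9 ± 9.15, Cd+ at 90.3 ± 15.3, H6 at 71.5 ± 17.7 and H0.5 at 58.5 ± 16.1. Neighbours in that order overlapped in their library ranges except at 2 steps, NaCl+ above D20 and C30 above C, so the order among the leaf groups and among the other seedling groups is not resolved.

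miR396b-5p, the other GRF regulator, was likewise highest in NaCl+ at 397 ± 111 CPM, with D20 at 367 ± 80.5, C30 at 301 ± 43.2, D30 at 288 ± 70.6 and C20 at 281 ± 51.7 overlapping in steps below it. The remaining 8 seedling groups ran between 110 ± 16.0 in S- and 154 ± 41.9 in H6, all overlapping their neighbours. The step between C20 and H6 was its only gap.

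The partner strands had another order, with leaves at the top. miR396a-3p was highest in D30 (229 ± 34.0 CPM), C30 (216 ± 82.8) and C20 (161 ± 32.7), then NaCl+ (143 ± 32.2) and D20 (120 ± 29.1), and was lowest in C (37.6 ± 4.44). miR396b-3p was highest in D30 (507 ± 85.2), C30 (362 ± 79.4) and C20 (344 ± 50.7), then NaCl+ (182 ± 54.3), D20 (178 ± 59.4) and H0.5 (175 ± 50.5), and was also lowest in C (56.7 ± 15.4). For miR396a-3p the only gap between neighbours was D20 above H0, and for miR396b-3p the gaps were C20 above NaCl+ and H0.5 above Cd+.

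Salinity was the stress in which every member was called, all 4 higher in NaCl+ than in C on the miRNA scale. The background was high as well, since 33.3% of the sequences tested were called and 20.5% were called higher. miR396a-5p had 2139, 989.6 and 1044 CPM in NaCl+ seedlings, against 132, 122 and 104 CPM in C seedlings. The lowest salt library thus lay far above the highest control library. On the log2 scale it rose by 3.48 (SE 0.41, adjusted p = 3.80e-05), and it ranked 3 from the top by fold change. One library, NaCl+ replicate 1, had 2914 reads of it and stood above the other salt libraries, and without it the log2 fold change was 2.97 (adjusted p = 2.23e-05).

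miR396b-5p had 518, 299 and 374 CPM in NaCl+, against 106, 143 and 103 CPM in C, again without overlap. It rose by 1.67 on the log2 scale (SE 0.32, adjusted p = 0.00162). The partner strands moved by similar amounts. miR396a-3p had 161, 106 and 162 CPM in NaCl+ and 40.0, 32.5 and 40.3 CPM in C, which is 1.78 higher on the log2 scale (SE 0.30, adjusted p = 0.000749). miR396b-3p had 176, 131 and 239.5 CPM in NaCl+ and 46.3, 74.4 and 49.5 CPM in C, which is 1.53 higher (SE 0.29, adjusted p = 0.00149). Neither pair of groups overlapped.

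The scale decides how much of this remains. Since less of the mapped RNA was miRNA in NaCl+, scaling by genome-mapped reads moved the median log2 fold change of all sequences by -1.45, and then 1 of the 4 members was called higher, against 3.85% of all sequences. That member was miR396a-5p, whose level on this scale is given as RPM, the reads of a sequence over all genome-mapped reads of its library scaled to a fixed total. It stood at 288, 165.6 and 103 RPM of genome-mapped reads in NaCl+ and 54.4, 45.0 and 41.9 in C, which still did not overlap. On that scale the log2 difference was 1.98 (SE 0.35, adjusted p = 3.84e-06). The other 3 were not called, at 0.19 for miR396b-5p, 0.30 for miR396a-3p and 0.06 for miR396b-3p. For miR396b-5p the libraries overlapped, with 69.8, 50.0 and 36.8 RPM of genome-mapped reads in NaCl+ and 43.5, 52.6 and 41.5 in C.

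**Figure D2:**
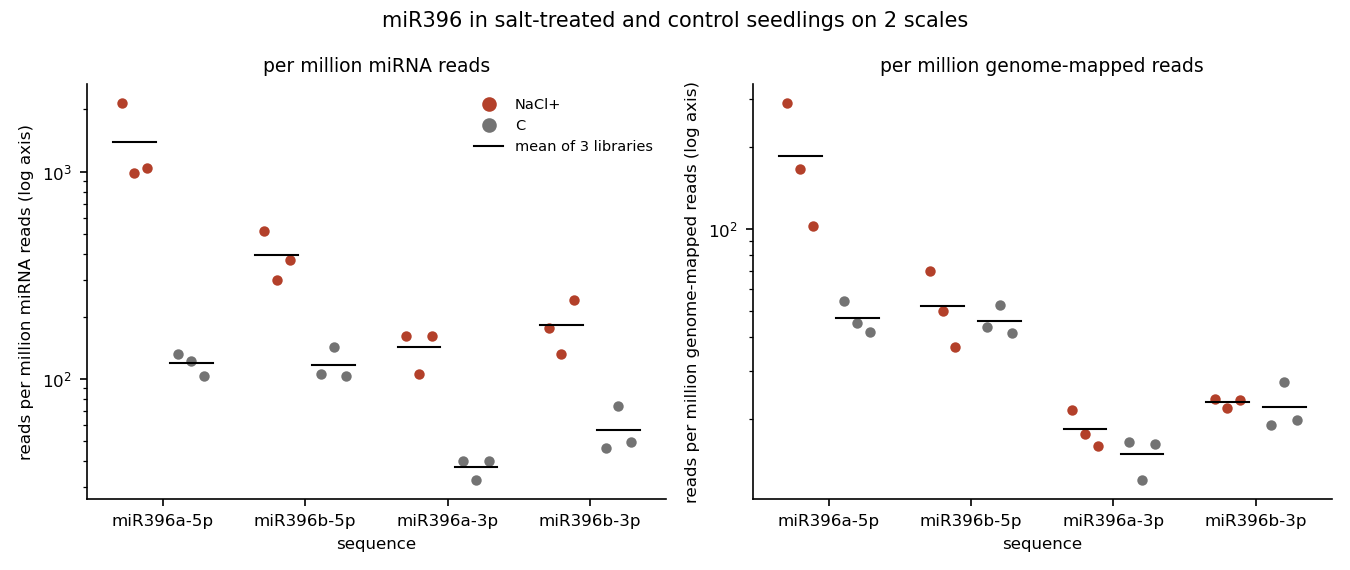
Levels of the 4 members in NaCl+ (red) and C (grey) libraries, left as CPM and right as RPM of genome-mapped reads, on log axes, with bars at the means of 3 libraries. All members separate on the left scale, while on the right miR396a-5p separates, at 103 to 288 in NaCl+ and 41.9 to 54.4 in C, and miR396b-5p overlaps.

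The ratio of the GRF regulators to each other does not depend on either scale. In NaCl+ there were 4.13, 3.31 and 2.79 reads of miR396a-5p for each read of miR396b-5p, against 1.25, 0.855 and 1.01 in C. The log2 ratio was higher by 1.71 (SE 0.23), a 3.28-fold difference without overlap. By an exact two-sided permutation test p was 0.1, the smallest that 3 libraries against 3 can give, and 0.2 after adjustment over 18 ratio comparisons, so the test could not pass 0.05 for any of them. In the other 12 conditions the ratio ran from 0.300 to 1.25 across libraries.

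The NaCl+ libraries were also set directly against the other 4 seedling treatments, which were also kept in liquid medium for 24 h. miR396a-5p was higher in NaCl+ in all 4 comparisons, by 3.66 (SE 0.32) against Cu-, 3.39 (SE 0.33) against Cu+, 3.76 (SE 0.32) against Cd+ and 3.54 (SE 0.34) against S- on the log2 scale, with adjusted p of 4.51e-06, 7.10e-06, 1.16e-27 and 2.57e-05. The p against Cd+ is far smaller because that fit put an infinite prior on the spread, with all sequences taken to share it, and is not to be read as stronger evidence. The same fit gave the p-values of the other members against Cd+ below and the 42.9% of sequences called there. Scaled by genome-mapped reads the log2 differences of miR396a-5p were 2.18, 1.97, 2.41 and 2.19, all called. The 4 comparisons share the NaCl+ libraries, and the share of all sequences called was 39%, 38%, 42.9% and 33.3% in the same order. Called higher were 36 of 159, 36 of 158, 36 of 154 and 30 of 159 sequences.

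Of the other members, miR396b-5p was called higher in NaCl+ in all 4 direct comparisons as well, by 1.57 (SE 0.25, adjusted p = 0.000400) against Cu-, 1.35 (SE 0.29, adjusted p = 0.00309) against Cu+, 1.45 (SE 0.29, adjusted p = 3.84e-06) against Cd+ and 1.60 (SE 0.26, adjusted p = 0.00104) against S-. By genome-mapped reads it was called in none of them, at 0.07, -0.10, 0.07 and 0.23. miR396a-3p was called higher by 0.73 (SE 0.26, adjusted p = 0.0410) against Cu-, 0.80 (SE 0.29, adjusted p = 0.0427) against Cu+, 0.73 (SE 0.28, adjusted p = 0.0231) against Cd+ and 1.26 (SE 0.24, adjusted p = 0.00231) against S-. The first 3 of these calls are fragile, since 11, 10 and 9 of 14 alternative settings ended or turned them, and by genome-mapped reads all 4 had the opposite sign, at -0.81, -0.65, -0.66 and -0.13, the first of them called (adjusted p = 0.0367). miR396b-3p was called higher against Cu+ (0.92, SE 0.30, adjusted p = 0.0308) and S- (1.28, SE 0.24, adjusted p = 0.00221) but not against Cu- (0.55, adjusted p = 0.203) or Cd+ (0.54, adjusted p = 0.112). The call against Cu+ ended or turned in 9 of 14 settings, and by genome-mapped reads the 2 called values were -0.57 and -0.14. Against Cu- and Cd+ the sign also turned on that scale, and miR396b-3p was then called lower in NaCl+, at -1.01 (SE 0.36, adjusted p = 0.00989) and -0.85 (SE 0.35, adjusted p = 0.0258), where 71.7% and 67.5% of all sequences were called lower.

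**Figure D3:**
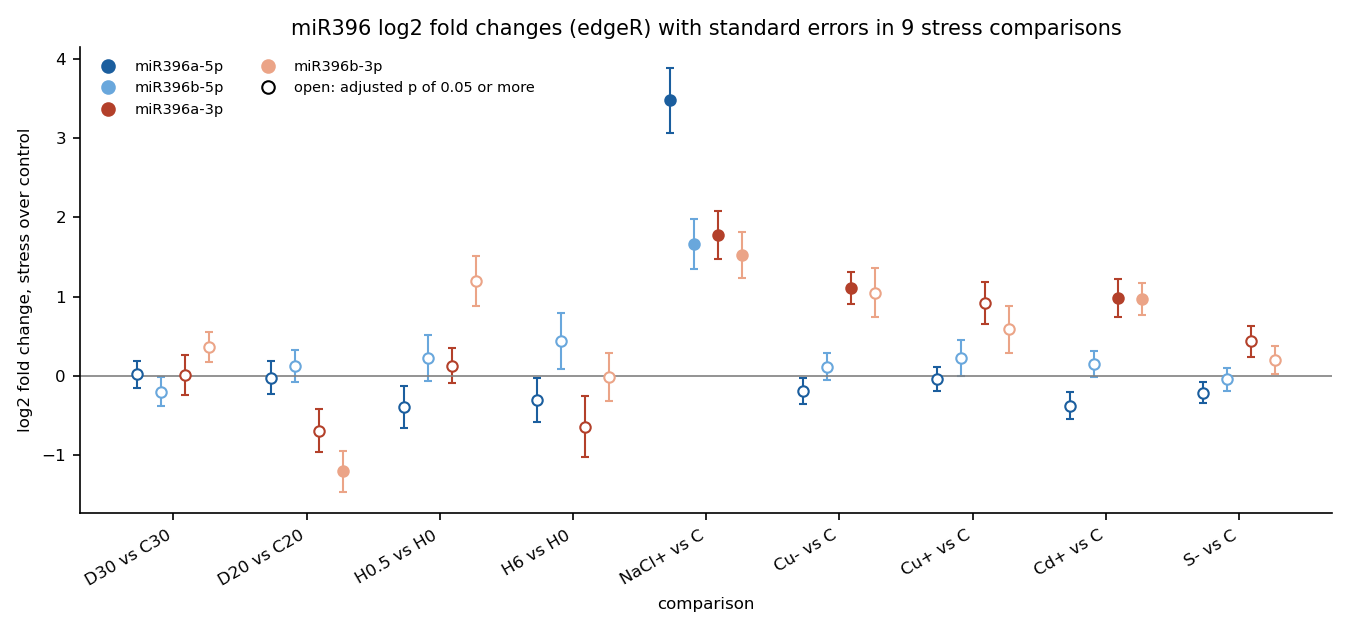
Log2 fold change of stress over control for each member in the 9 stress comparisons, with standard errors from edgeR. Filled points passed an adjusted p of 0.05. The 4 members are all filled in NaCl+, led by miR396a-5p at 3.48, and in D20, Cu- and Cd+ the filled points are 3p strands.

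In drought at 20% soil water content a partner strand was called lower, and the GRF regulators were not called. miR396b-3p had 246, 149 and 138 CPM in D20 leaves, against 385, 287 and 358 CPM in C20 leaves. The highest dried library was below the lowest watered one. It fell by 1.20 on the log2 scale (SE 0.26, adjusted p = 0.0144), the 1 member of 4 called where 19.8% of all 167 sequences were called and 10.8% called lower. The call ended without C20 replicate 3 (adjusted p = 0.0630), without D20 replicate 2 (0.108) and without D20 replicate 3 (0.0757), with log2 fold changes of -1.02, -0.98 and -0.96. miR396a-3p, its counterpart from the other hairpin, had 153, 109 and 98.6 CPM in D20 and 128, 161 and 193 CPM in C20, which overlap. The log2 difference of -0.69 (SE 0.27) reached an unadjusted p of 0.0343 and an adjusted p of 0.115, so it was not called. The 5p strands were at -0.02 and 0.13. miR396a-5p had 196, 275 and 289 CPM in D20 and 247, 221 and 173 CPM in C20. miR396b-5p had 281, 382 and 440 CPM in D20 and 320.5, 223 and 301 CPM in C20.

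At 30% soil water content 0 of 4 members were called by edgeR, where 0.602% of all sequences were. At an unadjusted p under 0.05 the number of members was 0 too, and DESeq2 also called 0, as did the study's one-way F test. The log2 fold changes ran from -0.20 to 0.36. miR396b-3p had 593, 423 and 504 CPM in D30 and 452, 334 and 301 CPM in C30, with overlap. The paper reports a rise of miR396b-3p in mild drought by Northern hybridization. It describes its own sequencing change as insignificant but in the same direction. A test of the difference between the drought levels, D20 over C20 minus D30 over C30, called miR396b-3p at -1.44 (SE 0.34, adjusted p = 0.0437) and none of the other 3 members, which ran from -0.58 to 0.42, against 3.39% of all sequences. That call ended in 5 of 12 fits without 1 library, those without C30 replicate 3, any C20 replicate or D20 replicate 3 (adjusted p up to 0.0917), and in the joint fit of all libraries (adjusted p = 0.0839). Leaves of the 2 levels were taken at 27 and 30 days, so soil water and age cannot be told apart in it.

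The balance of strands shows the same leaves from another side. Reads of both 5p strands over reads of both 3p strands were 1.19, 2.54 and 3.08 in D20, against 1.11, 0.990 and 0.859 in C20, with no overlap. In D30 the ratio was 0.578, 0.589 and 0.833, against 0.702, 0.810 and 1.05 in C30. In NaCl+ it was 7.88, 5.43 and 3.53, against 2.75, 2.47 and 2.30 in C. Across all 39 libraries 13 had more 3p than 5p reads.

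**Figure D4:**
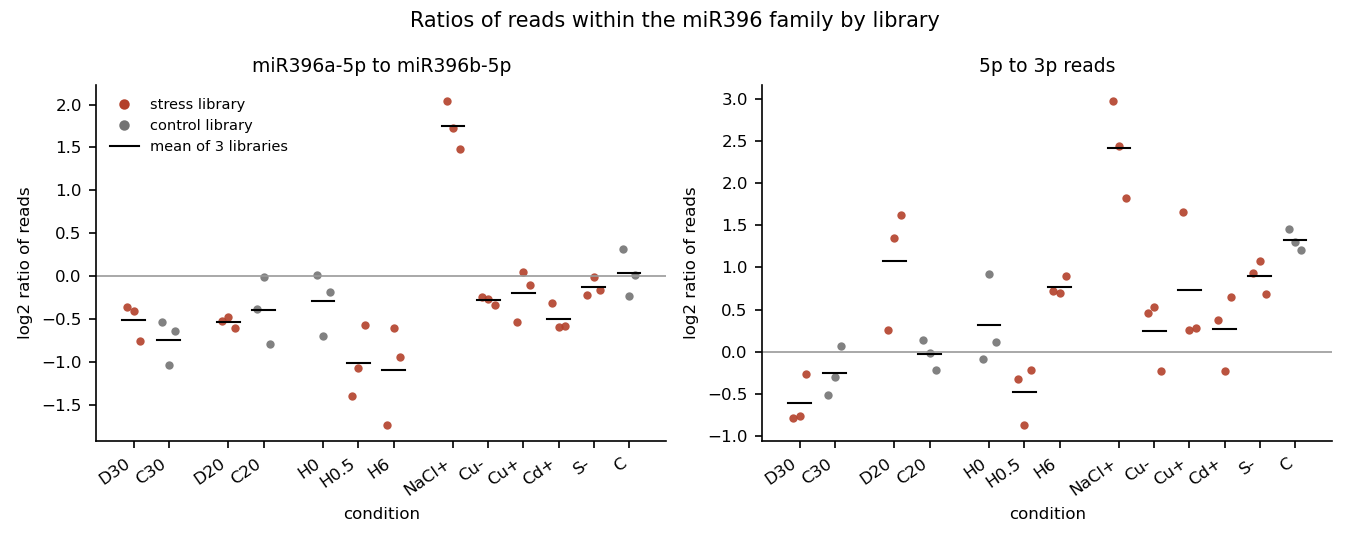
Log2 ratio of reads within the family in each library, left miR396a-5p to miR396b-5p and right both 5p strands to both 3p strands. Points are libraries, red for stress and grey for control, and bars are means of 3. NaCl+ is highest in both panels, and the 5p to 3p ratio of D20 lies above that of C20 in all libraries.

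Heat gave 0 called members at both times by edgeR, against 1.23% of all sequences at 0.5 h and 6.79% at 6 h, and both times were set against the same H0 libraries. At an unadjusted p under 0.05 edgeR had 1 member at 0.5 h, where 15 of 163 sequences were higher and 5 lower. At 6 h it had 0 members, where 6 of 162 sequences were higher and 13 lower. DESeq2 called 0 members at both times. The one-way F test placed 1 member under its unadjusted threshold at each time. It placed 4 of 294 sequences higher and 25 lower at 0.5 h, and 2 of 286 higher and 25 lower at 6 h. Libraries of H6 and H0 with equal numbers deviated together, and with a replicate block 19 sequences were called at 6 h, against 11 without it, and still 0 members. With the block 1 member, miR396a-3p, had an unadjusted p under 0.05 at 6 h, at -0.73 (SE 0.34, unadjusted p = 0.0302, adjusted p = 0.217), lower in all 3 pairs. In that fit 10 of 162 sequences were higher and 17 lower at the same threshold. The member at 0.5 h was miR396b-3p, with 113, 63.8 and 125 CPM in H0, then 149, 233 and 142 CPM in H0.5 and 76.8, 72.1 and 108 CPM in H6. All H0.5 libraries thus lay above all H0 and H6 libraries. At 0.5 h the log2 difference was 1.20 (SE 0.31, unadjusted p = 0.00748, adjusted p = 0.193), and over the alternatives it ran from 0.78 to 1.38. For H6 against H0.5 it was -1.03 (SE 0.28, unadjusted p = 0.00724, adjusted p = 0.146), not called, where 3.11% of all sequences were and the other members ran from -0.63 to 0.39. DESeq2 and the joint fit of all libraries did call this difference. The F test on CPM placed it at an unadjusted p of 0.0466, where 3 of 292 sequences were higher and 13 lower under its threshold.

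The GRF regulator miR396a-5p had 95.5, 110 and 101 CPM in H0, then 45.4, 53.7 and 76.5 CPM in H0.5 and 54.8, 69.9 and 90.0 CPM in H6. All heated libraries were below all unheated ones on this scale. By edgeR the log2 fold change was -0.40 at 0.5 h (adjusted p = 0.660) and -0.30 at 6 h (adjusted p = 0.789), neither called. With total miRNA counts as library sizes the median of all sequences shifted by -0.40 at 0.5 h, which gave -0.80 for miR396a-5p (adjusted p = 0.279), and the F test on CPM placed it at an unadjusted p of 0.0130. At 6 h the member the F test placed was miR396a-3p (unadjusted p = 0.0328), with 89.3, 88.6 and 73.9 CPM in H0 and 67.1, 36.5 and 32.7 CPM in H6. miR396b-5p overlapped between all heat groups.

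In copper deficiency and cadmium the members called were 3p strands, higher in the treated seedlings. Both comparisons, and those of copper excess and sulfate deficiency, used the same C libraries, in which both 3p strands were lower on average than in any other condition, so they are not independent of each other. In H0, the unstressed seedlings of the heat experiment, miR396a-3p ran from 73.9 to 89.3 CPM and miR396b-3p from 63.8 to 125 CPM. Both ranges overlap those of Cu- and Cd+. Without copper miR396a-3p had 59.9, 78.1 and 85.8 CPM, against 40.0, 32.5 and 40.3 CPM in C. It rose by 1.11 on the log2 scale (SE 0.21, adjusted p = 0.0157), the 1 member called where 10.5% of all sequences were called and 8.02% called higher. miR396b-3p had 109, 62.2 and 151.5 CPM in Cu- and 46.3, 74.4 and 49.5 CPM in C, with overlap, and a log2 difference of 1.05 (SE 0.31, adjusted p = 0.0648). The call of miR396a-3p ended without C replicate 1 (adjusted p = 0.0621), C replicate 2 (0.121) or Cu- replicate 3 (0.0514). A replicate block ended it too (adjusted p = 0.0980).

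With cadmium 2 members were called higher, where 11.2% of all sequences were called and 6.25% were called higher. miR396a-3p had 52.8, 95.4 and 70.9 CPM in Cd+, against the C values above, higher by 0.98 on the log2 scale (SE 0.24, adjusted p = 0.0309). miR396b-3p had 113, 119 and 90.9 CPM in Cd+, above all C libraries, higher by 0.97 (SE 0.20, adjusted p = 0.0145). Both calls ended without C replicate 1 (adjusted p = 0.0703 for both), without Cd+ replicate 2 (0.0873 and 0.0594) and in the joint fit of all libraries (0.0649 for both), and that of miR396a-3p also ended without Cd+ replicate 3 (0.0861). A replicate block also ended the call of miR396a-3p (adjusted p = 0.0811). The 5p strands were not called, at -0.38 for miR396a-5p (adjusted p = 0.198) and 0.15 for miR396b-5p. Reads of miR396a-5p for each read of miR396b-5p were 0.806, 0.661 and 0.671 in Cd+, below the 0.855 to 1.25 of C. In Cu- they were 0.847, 0.831 and 0.794, also below C. Each of these ratio differences had an exact two-sided permutation p of 0.1 and an adjusted p of 0.2.

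Copper excess gave 0 called members by edgeR, where 1.24% of all sequences were called, and DESeq2 and the F test on CPM also called 0. At an unadjusted p under 0.05, 11 of 161 sequences were higher and 9 lower. Among them was 1 member, miR396a-3p, with 46.0, 71.9 and 89.6 CPM in Cu+ and 40.0, 32.5 and 40.3 CPM in C. The log2 difference was 0.92 (SE 0.27, unadjusted p = 0.00945, adjusted p = 0.187). Without Cu+ replicate 1 it was called, at 1.16 (adjusted p = 0.0404). Libraries of Cu+ and C with equal numbers also deviated together, and with a replicate block edgeR called 0 sequences, against 2 without it, while 10 were higher and 15 lower at an unadjusted p under 0.05. With the block 2 members had an unadjusted p under 0.05 and neither was called, miR396a-3p at 0.88 (SE 0.26, unadjusted p = 0.0109, adjusted p = 0.143) and miR396b-3p at 0.54 (SE 0.19, unadjusted p = 0.0253, adjusted p = 0.194). Without sulfate 0 of 4 members were called, as were 0% of all 161 sequences, of which 3 were higher and 5 lower in S- at an unadjusted p under 0.05. DESeq2 called 0 of all sequences too. No member had an unadjusted p under 0.05 there, DESeq2 and the F test on CPM called none, and the log2 fold changes ran from -0.21 to 0.44.

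In Cu-, Cd+ and S- the 5p to 3p ratio was below that of C in all libraries. It was 1.44, 1.37 and 0.853 in Cu-, 1.30, 0.854 and 1.56 in Cd+ and 1.92, 2.10 and 1.61 in S-, against 2.30 to 2.75 in C. The log2 ratio differed by -1.07 (SE 0.25), -1.06 (SE 0.27) and -0.42 (SE 0.14), and each had an exact two-sided permutation p of 0.1 and an adjusted p of 0.2 over the 18. The 3 comparisons share the C libraries. In H0, the other unstressed seedlings, the ratio was 0.939, 1.89 and 1.08, which overlaps Cu-, Cd+ and S-. Of the 18 ratio comparisons 9 did not overlap, and those 9 are the ones at the smallest possible p of 0.1. They include the 5p to 3p ratio of H0.5, at 0.547 to 0.860, below the 0.939 to 1.89 of H0.

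Unstressed leaves (C30 and C20, 6 libraries) were compared with unstressed seedlings (H0 and C, 6 libraries). Leaves had more of 3 members, in a contrast where 51.9% of all sequences were called. Of 185 sequences 39 were called higher and 57 lower. miR396b-3p ranged over 287 to 452 CPM in leaves and 46.3 to 125 CPM in seedlings, higher by 1.60 on the log2 scale (SE 0.17, adjusted p = 7.15e-06). miR396a-3p ranged over 128 to 308 CPM in leaves and 32.5 to 89.3 CPM in seedlings, higher by 1.09 (SE 0.21, adjusted p = 0.000737). miR396b-5p ranged over 223 to 350 CPM in leaves and 94.3 to 178 CPM in seedlings, and was higher by 0.60 (SE 0.18, adjusted p = 0.0144). miR396a-5p was not called, at 0.20 (adjusted p = 0.236), although its CPM did not overlap either, with 170 to 247 in leaves and 95.5 to 132 in seedlings. By total miRNA counts the median of all sequences moved by 0.63 and all 4 members were called higher in leaves. Organ, age, growth medium and experiment differ together here and cannot be told apart.

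For each member the 3 sequences outside the family with the most similar pattern were found by Pearson r of mean log2(CPM + 1) over the 13 conditions, among 167 sequences with a mean count of at least 10. This is a description over points that share libraries, controls and the CPM scale. miR396a-5p was most like miR5642a,miR5642b (0.93), miR171b-3p,miR171c-3p (0.92) and miR171a-3p (0.87). Its mean was 1391 CPM in NaCl+ and at most 253 CPM, in D20, elsewhere, so that 1 condition weighs heavily in these r. The paper lists all 3 of these sequences as higher under salinity. miR396b-5p was most like miR167d (0.90), miR824-3p (0.90) and miR172b-5p,miR172e-5p (0.89). miR396a-3p was most like miR172b-5p,miR172e-5p (0.89), miR167d (0.88) and miR171c-5p (0.87), and miR396b-3p was most like miR171c-5p (0.91), miR156d-3p (0.90) and miR398b-5p,miR398c-5p (0.85). Within the family the r was 0.94 between the 3p strands and 0.82 between the 5p strands. Strands of one hairpin had 0.59 for miR396a-5p with miR396a-3p and 0.76 for miR396b-5p with miR396b-3p, and strands that share neither arm nor hairpin had 0.82 for miR396b-5p with miR396a-3p and 0.42 for miR396a-5p with miR396b-3p.

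Other small RNAs were counted by family number, from families whose regulator strands act on leaf growth and cell proliferation: miR319, which represses TCP factors that in turn act on MIR396 genes, miR156 and miR157 (SPL factors), miR164 (NAC factors), and miR165 and miR166 (HD-ZIP III factors). The list had 28 sequences, partner strands included, of which 22 or 23 were tested in each comparison. In salinity 4 of 23 were called higher and 6 lower, beside 20.5% and 12.8% of all sequences, and the median log2 fold change was -0.22, against 0.13 over all. The lowest p among the higher ones belonged to miR319a,miR319b, which rose by 2.12 (SE 0.37, adjusted p = 0.000821), and among the lower ones to miR166a-5p,miR166b-5p, a partner strand of the HD-ZIP III regulators, which fell by 2.47 (SE 0.28, adjusted p = 3.79e-05). Under the same number as miR319a,miR319b, miR319b.2 and miR319c.2 were called lower in salinity, at -1.23 (adjusted p = 0.0108) and -1.15 (adjusted p = 0.0173). The other higher calls were the partner strands miR156f-3p, miR156b-3p and miR156a-3p. The other lower calls were the partner strands miR165a-5p and miR166e-5p, and the NAC regulator miR164c-5p. The regulator strands miR156a-5p, miR157a-5p, miR165a-3p and miR166a-3p were not called (adjusted p = 0.181, 0.556, 0.471 and 0.132). In severe drought 0 were higher and 5 lower, beside 8.98% and 10.8% of all sequences. Without copper 4 were higher and 0 lower, beside 8.02% and 2.47%, and with cadmium 4 were higher and 0 lower, beside 6.25% and 5%. With copper excess 1 was higher and 0 lower, beside 1.24% and 0%. After 0.5 h of heat 2 were higher and 0 lower, beside 1.23% and 0%, and after 6 h 1 was higher and 3 lower, beside 1.23% and 5.56%. In mild drought 0 were higher and 0 lower, beside 0.602% and 0%, and in sulfate deficiency 0 and 0, beside 0% and 0%.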

How the data were processed

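Small RNA libraries of 39 samples were sequenced by the authors on the Illumina platform. Per the methods, the authors removed reads shorter than 17 nt, aligned the rest to mature miRNAs of miRBase 21 plus 4 added sequences and trimmed unmatched reads at both ends for another attempt. The deposited counts are whole reads per mature sequence, not normalized. The submitters' processing notes name Bowtie 1.0.0 and TAIR10, and the deposited percent of reads mapped to the genome and the RNA integrity score were given per library by the authors. Deposited CPM, fold change and p-value columns hold the authors' own comparisons and were not used.

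Count columns were assigned to samples by sheet heading and replicate number, and in all 39 libraries the column sum equalled the miRNA reads of the deposited summary. Libraries of the groups compared were fitted in edgeR 4.0.16 (R 4.3.3) by the quasi-likelihood test without a replicate block, after removal of low sequences by filterByExpr (minimum count 10) and TMM scaling. The study itself used a one-way F test on CPM without adjustment, which was run as an alternative. For it, sequences were counted as called at an unadjusted p under 0.05. Other alternatives were RLE, total and genome-mapped scaling, no filter, DESeq2 1.42.0, a joint fit, a replicate block and leaving out each library. Ratios used a pseudocount of 0.5 reads and an exact permutation test (scipy 1.17.1). The fitting code was tested on simulated data. Equal replicate numbers were taken to pair libraries where the correlation of deviations from group means was over 0.1 for every number, which the counts showed, and not the labels, for H6 with H0 (0.35 to 0.72) and Cu+ with C (0.19 to 0.33).

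All 4 members get levels in every condition, and a fold change with its error is printed where the unadjusted p was under 0.05, with other members given by range or, where the text needs it, by value chosen after it was seen. The members and lists were chosen with earlier results of these data known. Permutation p-values and fits cover the spread between libraries.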

Additional observations from a re-analysis of the deposited data

Results flagged for a closer look

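Several members differed between groups under the same control when the difference itself was tested. In NaCl+ against Cu-, Cu+, Cd+ and S- the log2 difference was 3.66, 3.39, 3.76 and 3.54 for miR396a-5p and 1.57, 1.35, 1.45 and 1.60 for miR396b-5p. It was 0.73, 0.80, 0.73 and 1.26 for miR396a-3p in the same order, and 0.92 against Cu+ and 1.28 against S- for miR396b-3p. Each passed an adjusted p of 0.05 by edgeR, with 3 libraries a group. Of all sequences 39%, 38%, 42.9% and 33.3% were called in these comparisons, in the same order. The miR396a-3p calls against Cu-, Cu+ and Cd+ ended or turned in 11, 10 and 9 of 14 alternative settings. That of miR396b-3p against Cu+ did so in 9 of 14. Of the 4 members only miR396a-5p stayed called higher in all 4 comparisons when reads were scaled to the genome-mapped total.

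The 2 drought comparisons also differed in miR396b-3p, by -1.44 on the log2 scale for D20 over C20 minus D30 over C30 (edgeR, adjusted p = 0.0437), with D20 below C20 in all libraries and D30 overlapping C30. In that test 3.39% of all sequences were called. The call ended in 6 of 19 alternative settings. Leaves were taken at 27 and 30 days, so soil water and age cannot be told apart.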

How the results depend on the processing

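Of 31 member fold changes with an unadjusted p under 0.05, 376 alternative values kept direction and side of the threshold, 62 lost the call, 9 gained it and 7 reversed. All 7 reversals came with genome-mapped reads. For miR396a-3p they were -0.81 (NaCl+ against Cu-), -0.65 (Cu+), -0.66 (Cd+) and -0.13 (S-), for miR396b-3p -0.57 (Cu+) and -0.14 (S-), and for miR396b-5p -0.10 (Cu+). On that scale 1 member was called in NaCl+ against C, Cu+ and S-, higher in each, 3 against Cu- (1 higher and 2 lower) and 2 against Cd+ (1 higher and 1 lower), and NaCl+ held place 12 of 13 for miR396a-3p and miR396b-3p and place 9 for miR396b-5p, against 4, 4 and 1 by CPM. For miR396a-5p it held place 1 on both.

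The number of members called in Cu- became 2 with no read filter, DESeq2 or the joint fit and 0 with a replicate block. In Cd+ it became 0 in the joint fit and 1 with a replicate block. Equal replicate numbers did not meet the rule used for pairing in Cu- (correlations of -0.46 to 0.05) or Cd+ (-0.22 to -0.07). With 3 libraries a group this does not show that they were unpaired. The blocked fit moved no other count of members by over 1.5 times. In NaCl+ against Cu+ it became 2 with RLE scaling, no filter, DESeq2 or the joint fit. In H0.5 and in H6 against H0 it became 1 with the F test on CPM, counted at its unadjusted threshold. In H6 against H0.5 it became 1 with DESeq2, the joint fit or the F test at that threshold, and in the drought difference 0 in the joint fit. Leaving out 1 library gave 0 to 2 in D20, Cu- and Cd+, 0 to 1 in Cu+ and in the drought difference, and 2 to 3 in NaCl+ against Cu+. The cause of these moves was not tested.

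No ratio whose groups were apart changed direction with a pseudocount of 1 or without any library. With total miRNA counts as library sizes the median over all sequences shifted by 0.12 in D30, 0.26 in D20, -0.22 in H6, 0.13 in NaCl+ and -0.12 in Cu-, and with RLE factors by -0.18 in H0.5. Genome-mapped reads shifted it by 0.10 in D20, -0.36 in H0.5 and -0.26 in H6, and by -1.37 to -1.51 in NaCl+ against the other treatments. With 3 libraries a group, a value that was not called is not shown to be unchanged.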
